A study of Mus musculus with 9 samples.

Results

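Fatty acid synthesis and its transcriptional control were followed through 10 genes in mouse livers sampled 12 h after partial hepatectomy, in which lobes are cut away and the remaining tissue regrows. The genes are the synthesis enzymes Acly, Acaca and Fasn, the elongase and desaturase genes Elovl6, Scd1, Fads1 and Fads2, and the regulators Srebf1, Mlxipl and Nr1h3. They were taken by gene symbol from the array annotation, which assigned 16 of the 45281 probes to them. Of the 10 genes, 8 had a probe that passed the filter on dim probes (a detection p under 0.05 on at least 4 of the 9 arrays) and are among the 11559 features tested. Fasn and Acaca did not pass.

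One group of livers came from 5 C57BL/6 mice labelled LTRβ-/-, which lack the lymphotoxin β receptor, and which had been given etanercept 24 h before surgery. They are called KO livers here (KO 1 to KO 5). The control livers came from 4 C57BL/6 wild-type mice (control 1 to control 4). Etanercept, a soluble decoy receptor, captures TNF and also lymphotoxin α. All 9 mice were operated, genotype and drug differed together, and what the control mice received was not stated, so a difference belongs to the combination. The replicate numbers only name the animals, 1 array stands for 1 liver, and the labels number the surgery days from 1 to 5.

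De novo lipogenesis turns citrate-derived acetyl-CoA into palmitate in the cytosol, and elongases and desaturases then lengthen the chain and add double bonds. In liver the pathway is controlled mainly at the level of transcription. SREBP1c (from Srebf1) answers to insulin, ChREBP (from Mlxipl) to carbohydrate, and the oxysterol receptor LXRα (from Nr1h3) acts upstream of SREBP1c. The liver stores fat for a short time after partial hepatectomy, which makes these genes of interest at this stage.

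KO 4 had a mean bead signal of 143 intensity units, against 336 to 438 for the other 8 arrays, and it also had the fewest detected probes (9493, against 13926 to 16186 on the others). Ltbr, the deleted gene, differed by -0.78 ± 0.35 (SE) and did not pass (limma adjusted p = 0.931), and by -0.51 with KO 4 left out of the fit. Whether its probe lies in the deleted part is not known, so that value checks no label. Of the 9 hepatocyte markers tested, which include Alb and Apoa1, all were detected on all 9 arrays.

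None of the 8 measured lipogenic genes passed the threshold of a limma adjusted p under 0.05, where 0.00865% of all features did (1 of 11559). At an unadjusted p under 0.05 the count was also 0 of 8, against 4.09% of all features (2.45% lower and 1.64% higher in the KO livers). Differences are given as KO minus control on the log2 scale of normalized expression. All 3 regulators and Fads2 had negative differences, from -0.61 to -0.86, while Acly, Elovl6, Scd1 and Fads1 lay between -0.15 and 0.32. The median over the 8 genes was -0.38, beside -0.02 over all features, and 5 of 8 differences were negative, beside 52.4% of all features. For 0 of the 8 genes were the groups free of overlap, against 0.796% of all features. The median standard error of a difference over all features was 0.31, and 9 arrays limit the precision. The labels do not say whether animals of a group shared a cage or litter, so a p-value measures only the spread between these livers.

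**Figure D1:**
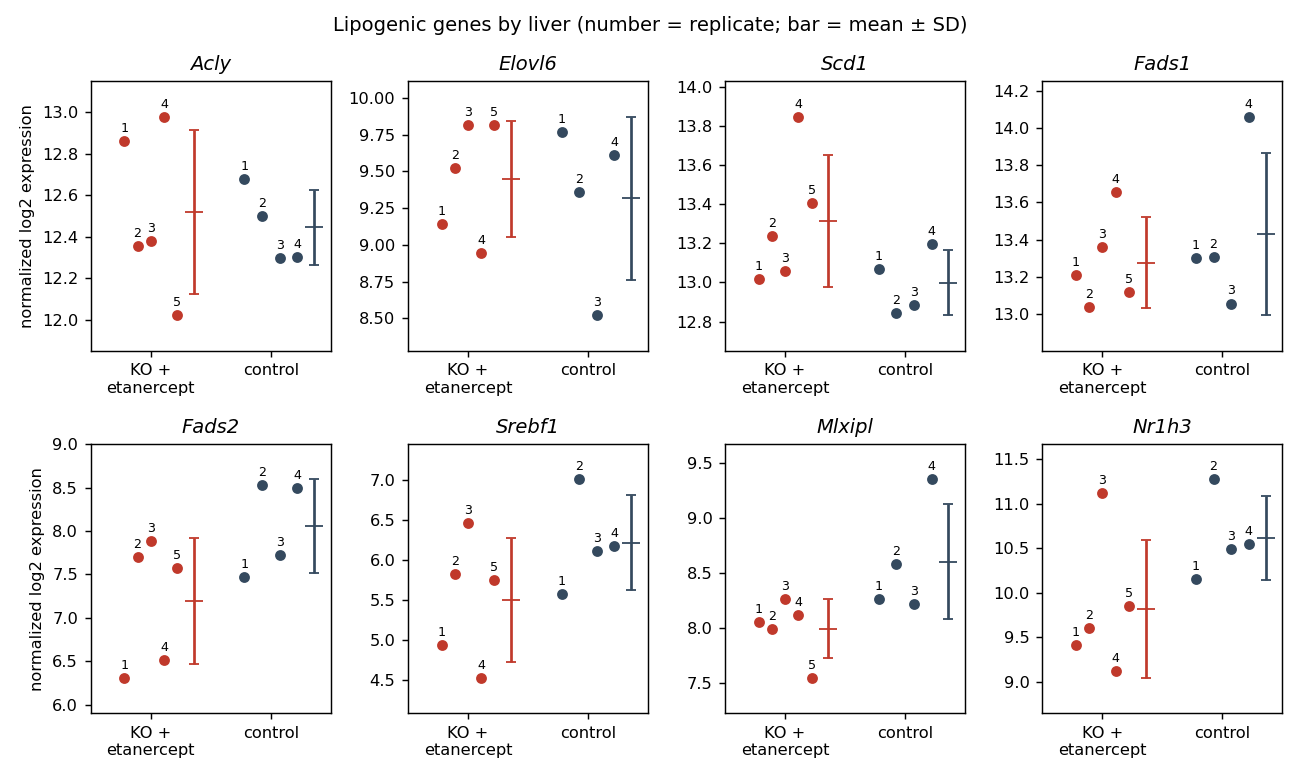
Normalized log2 expression (vertical axes, each with its own range) of the 8 measured lipogenic genes in 5 KO livers (red, left) and 4 control livers (dark, right). Each point is 1 liver with its replicate number and the bars are the mean ± SD. For Fads2, Srebf1 and Nr1h3, KO 1 and KO 4 lie below every control liver.

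Among the synthesis enzymes, Acly (Entrez gene 104112, chromosome 11, 100476352 to 100528000 in GRCm38.p6) encodes ATP citrate lyase, which makes cytosolic acetyl-CoA from citrate. Its log2 expression was 12.86, 12.36, 12.38, 12.98 and 12.02 in KO 1 to KO 5, against 12.68, 12.50, 12.30 and 12.30 in control 1 to control 4. The KO livers held both the highest values (KO 4 and KO 1) and the lowest (KO 5), and the controls lay between them. The difference was 0.07 ± 0.25 (SE, limma adjusted p = 0.966), with a 95% interval from -0.47 to 0.62. Without KO 4 it was -0.040.

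Acaca (Entrez gene 107476, chromosome 11, 84129635 to 84401651) encodes acetyl-CoA carboxylase 1, which makes malonyl-CoA. Its only probe was detected on 0 of 5 KO arrays and 0 of 4 control arrays. Fasn (Entrez gene 14104, chromosome 11, 120805958 to 120825166) encodes fatty acid synthase, the enzyme that builds palmitate. Its only probe gave signals of 109, 123, 125, 83.9 and 127 intensity units in KO 1 to KO 5, against 119, 126, 102 and 99.8 in control 1 to control 4. Only the reading of KO 3 passed the detection limit, which those of KO 2, KO 5 and control 2 missed narrowly. For both enzymes the probes were not well above background in either group, and these arrays give no fold change for them.

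Elovl6 (Entrez gene 170439, chromosome 3, 129532386 to 129638495) encodes the elongase that turns palmitate into stearate. Its values were 9.14, 9.52, 9.82, 8.94 and 9.82 in KO 1 to KO 5, against 9.77, 9.36, 8.52 and 9.61 in control 1 to control 4. Control 3 was the lowest liver and the other values were mixed. The difference was 0.13 ± 0.31 (SE, limma adjusted p = 0.951). It was -0.28 ± 0.32 with surgery day as a block, -0.13 without control 3 and 0.26 without KO 4, so its sign is not settled.

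Scd1 (Entrez gene 20249, chromosome 19, 44394450 to 44407709) encodes stearoyl-CoA desaturase 1, which makes oleate from stearate. It read 13.02, 13.24, 13.06, 13.85 and 13.40 in KO 1 to KO 5, against 13.07, 12.84, 12.88 and 13.20 in control 1 to control 4. KO 2, KO 4 and KO 5 lay above all controls, and KO 1 and KO 3 lay below control 1. The difference of 0.32 ± 0.23 (SE, limma adjusted p = 0.931) was the largest positive one of the 8 genes. It was 0.18 with KO 4 left out of the fit and -0.060 with median scaling, which moved the median of all features to -0.26.

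The desaturase genes Fads1 (Entrez gene 76267, chromosome 19, 10182877 to 10196874) and Fads2 (Entrez gene 56473, chromosome 19, 10062765 to 10101503) are neighbours and encode the delta-5 and delta-6 desaturases, which make polyunsaturated fatty acids. Fads1 read 13.21, 13.04, 13.36, 13.66 and 13.12 in KO 1 to KO 5, against 13.30, 13.30, 13.06 and 14.06 in control 1 to control 4. Control 4 stood above all other livers and the remaining values overlapped. The Fads1 difference was -0.15 ± 0.25 (SE, limma adjusted p = 0.941), 0.056 without control 4 and -0.25 without KO 4.

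Fads2 had the largest negative difference of the 8 genes. Its values were 6.31, 7.70, 7.88, 6.51 and 7.58 in KO 1 to KO 5, against 7.47, 8.53, 7.72 and 8.49 in control 1 to control 4. KO 1 and KO 4 lay below every control, control 2 and control 4 lay above every KO liver, and the others were interleaved. The 5 KO livers averaged 7.20 ± 0.73 (SD) and the 4 controls 8.05 ± 0.54 (SD). Expression in KO livers was thus 0.552 of that in controls (-0.86 ± 0.39, SE; 95% interval -1.72 to 0.000878), which did not pass in limma (adjusted p = 0.931, unadjusted 0.0502). A dimmer Fads2 probe, detected on 3 of 5 KO and 4 of 4 control arrays, differed by -0.99 ± 0.50 (SE). Without KO 4 from background correction on, the Fads2 difference was -0.70.

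Srebf1 (Entrez gene 20787, chromosome 11, 60199084 to 60224186) encodes SREBP1, the membrane-bound factor that is cut and moves to the nucleus to switch on lipogenic genes. It was dim: of its probes, 1 was detected on no array and the tested one on 3 of 5 KO and 4 of 4 control arrays. The tested probe read 4.93, 5.82, 6.47, 4.53 and 5.75 in KO 1 to KO 5, against 5.57, 7.004, 6.11 and 6.17 in control 1 to control 4. KO 1 and KO 4, where it was not detected, lay below every control, while KO 3 lay above all controls but control 2. The difference was -0.71 ± 0.41 (SE, limma adjusted p = 0.931), and -0.49 without KO 4 from background correction on. It was -0.45 without control 2, -0.27 with no background correction and -0.35 in the authors' deposited values. Whether the probe reads the SREBP1a form, the SREBP1c form or both is not annotated.

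Mlxipl (Entrez gene 58805, chromosome 5, 135089890 to 135139768) encodes ChREBP, which activates glycolytic and lipogenic genes when glucose is plentiful. Its values were 8.06, 7.998, 8.26, 8.12 and 7.55 in KO 1 to KO 5, against 8.27, 8.59, 8.22 and 9.35 in control 1 to control 4. The groups met only at KO 3, which lay above control 3 and just under control 1. The 5 KO livers averaged 7.999 ± 0.27 (SD) and the 4 controls 8.61 ± 0.52 (SD). The difference of -0.61 ± 0.28 (SE, limma adjusted p = 0.931, unadjusted 0.0501) was -0.36 without control 4. A second probe, detected on 4 of 5 KO and 4 of 4 control arrays, differed by -0.48 ± 0.24 (SE).

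Nr1h3 (Entrez gene 22259, chromosome 2, 91184061 to 91202829) encodes LXRα, a nuclear receptor for oxysterols. It read 9.41, 9.61, 11.12, 9.12 and 9.85 in KO 1 to KO 5, against 10.15, 11.27, 10.49 and 10.55 in control 1 to control 4. All KO livers except KO 3 lay below every control, and KO 3 was exceeded by control 2 alone. The 5 KO livers averaged 9.82 ± 0.78 (SD) and the 4 controls 10.62 ± 0.47 (SD). The difference was -0.79 ± 0.40 (SE, limma adjusted p = 0.931), and -1.12 without KO 3. It was -0.58 without control 2 and -0.62 without KO 4. In whole liver, fewer cells that express a gene and less RNA per cell cannot be told apart.

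The processing set whether any of these genes was called. In the authors' deposited normalized values, Fads2 (-0.83 ± 0.20, SE) and Mlxipl (-0.50 ± 0.11, SE) passed in limma with adjusted p of 0.0355 and 0.0311, 2 of 8 genes beside 9.27% of all features (1072 of 11559). Acly differed by 0.36 ± 0.10 (SE) there, just short of the threshold (limma adjusted p = 0.0519). Once the fit on those values carried a term for surgery day, 0 of 8 genes and 0% of all features passed. The SE was then 0.32 for Fads2 and 0.20 for Mlxipl. That fit takes the group difference only from days 1, 2 and 5, which held both groups, and leaves less information on the spread. The deposited values held almost no difference between most surgery days: in a fit with group and day, days 2, 4 and 5 differed from day 1 by at most 6.48e-06 on average (absolute log2 difference), and day 3, which held control 3 alone, by 0.0935. From the raw signals these average differences were 0.345 for day 2, 0.444 for day 3, 0.563 for day 4 and 0.357 for day 5. The step that made the deposited values is not stated in the sources used here. A fit on group alone takes the livers as independent, so its SE and p can be too small in those values.

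**Figure D2:**
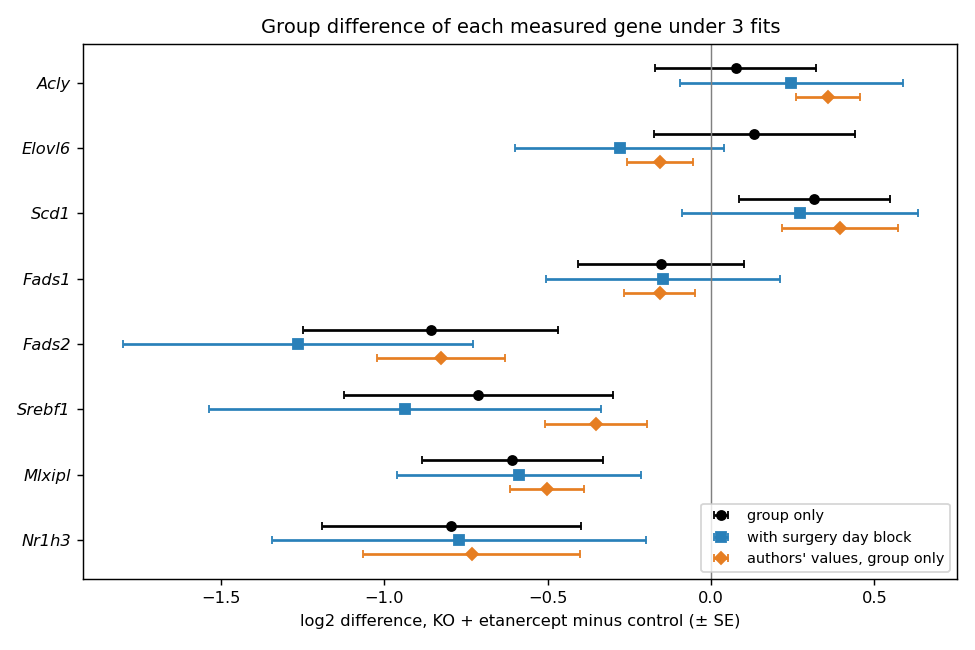
Log2 difference between KO and control livers (horizontal axis, ± SE) for each measured gene in a fit on group alone (black circles), a fit with surgery day as a block (blue squares) and a fit on group alone of the authors' deposited values (orange diamonds). Fads2, Srebf1, Mlxipl and Nr1h3 lie left of 0 in all of these fits, and Elovl6 changes side.

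Surgery days 1, 2 and 5 held 1 liver of each group, and the sign for Fads2, Srebf1 and Nr1h3 differed between them. Within day 1 (KO 1 and control 4) these genes differed by -2.19, -1.24 and -1.13. Within day 2 (KO 4 and control 2), where the KO array is the dim one, they differed by -2.02, -2.47 and -2.16. Within day 5 (KO 3 and control 1) the differences were 0.41, 0.90 and 0.97, with the KO liver higher. Mlxipl differed by -1.30 on day 1, -0.46 on day 2 and -0.00222 on day 5. Each of these sets 1 array against 1 and has no test, and the Srebf1 probe was not detected on KO 1 or KO 4, so its day 1 and day 2 values are taken against readings not above background. Slides 1 and 2 are told apart here by the number that opens the array code in each sample title. Within slide 1 and slide 2, Fads2 differed by -0.996 and -0.79, Srebf1 by -0.91 and -0.56, Mlxipl by -0.40 and -0.81, and Nr1h3 by -1.20 and -0.49.

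Among the enzymes, Scd1 differed by -0.18, 1.003 and -0.00809 within days 1, 2 and 5, with the positive value in the pair that holds the dim array. Acly differed by 0.56, 0.48 and -0.30, Elovl6 by -0.47, -0.42 and 0.05, and Fads1 by -0.85, 0.35 and 0.06 on the same days. With surgery day as a block, 0 of the 8 genes passed in limma (adjusted p of 0.948 or more). Only days 1, 2 and 5 held both groups, so a group difference in that fit is the average of these within-day differences. The livers of the other days do not enter it. Fads2 differed by -1.26 ± 0.54 (SE) in that fit, Srebf1 by -0.94 ± 0.60, Nr1h3 by -0.77 ± 0.57 and Mlxipl by -0.59 ± 0.37. Without KO 4 from background correction on, the blocked differences were -0.90 ± 0.62 (SE) for Fads2, -0.18 ± 0.55 for Srebf1, -0.080 ± 0.53 for Nr1h3 and -0.65 ± 0.43 for Mlxipl. These rest on days 1 and 5 alone, within which Fads2, Srebf1 and Nr1h3 differed in opposite directions.

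**Figure D3:**
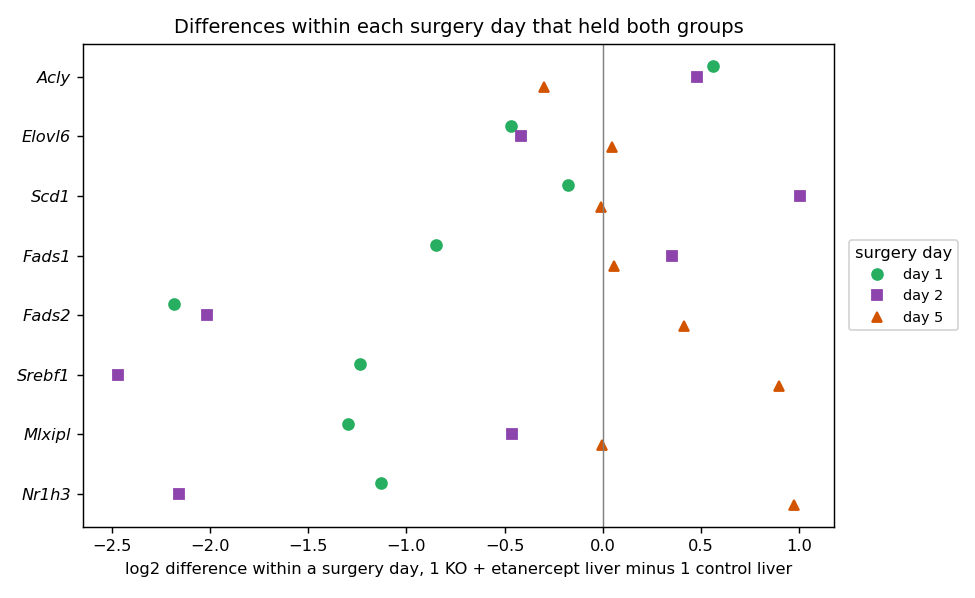
Log2 difference of 1 KO liver minus 1 control liver (horizontal axis) within each surgery day that held both groups, for the 8 measured genes. Srebf1 reads -1.24 on day 1 (circle), -2.47 on day 2 (square) and 0.90 on day 5 (triangle), and was not detected in the KO liver on days 1 and 2.

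The levels of some of these genes moved together from liver to liver. Of the 15 pairs of a measured regulator and a measured enzyme, 2 passed after Benjamini-Hochberg adjustment over the pairs, by exact two-sided permutation over the 9 livers, and 5 had an unadjusted p under 0.05. Srebf1 and Fads2 had a Pearson r of 0.918 (exact permutation p = 0.00142, adjusted 0.0213) and a Spearman rho of 0.967 (exact permutation p = 0.000165, adjusted 0.00248). Nr1h3 and Fads2 had an r of 0.823 (exact permutation p = 0.00655, adjusted 0.0491) and a rho of 0.900 (exact permutation p = 0.00203, adjusted 0.0152). Leaving out KO 4 and control 2, the livers farthest from the median of either regulator, gave r of 0.874 (exact permutation p = 0.0183) for Srebf1 and Fads2. The same step gave 0.667 (exact permutation p = 0.0966) for Nr1h3 and Fads2, over the 7 livers left. Without KO 4 alone, 0 of 15 pairs passed by r and 1 by rho. Srebf1 and Fads2 then had an r of 0.891 (adjusted exact permutation p = 0.0856) and a rho of 0.976 (adjusted exact permutation p = 0.00595). Nr1h3 and Fads2 had an r of 0.754 (adjusted exact permutation p = 0.114) and a rho of 0.881 (adjusted exact permutation p = 0.0543). With KO 4, KO 1 and control 2 all left out, r was 0.609 (exact permutation p = 0.186) for Srebf1 and Fads2. For Nr1h3 and Fads2 it was then 0.444 (exact permutation p = 0.394). The Srebf1 probe was not detected on KO 1 or KO 4, so its lowest values are readings not above background. With group means removed, r was 0.892 for Srebf1 and Fads2 and 0.735 for Nr1h3 and Fads2. Slides hold 4 and 5 livers and days at most 2, too few for a correlation within them.

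The remaining 13 pairs among the 8 genes were added after their values had been seen, with adjustment over all 28 pairs. Srebf1 and Nr1h3 had an r of 0.932 (exact permutation p = 0.000303, adjusted 0.00849) and a rho of 0.933 (exact permutation p = 0.00075, adjusted 0.0105). Without KO 4 and control 2 their r was 0.863 (exact permutation p = 0.0131), and without KO 4 alone it was 0.910 (adjusted exact permutation p = 0.0299). With KO 4, KO 1 and control 2 all left out it was 0.837 (exact permutation p = 0.0375). KO 4 and KO 1 were lowest in both genes, and control 2 and KO 3 highest. The enzymes did not follow as a block: Srebf1 had an r of -0.681 with Scd1 (adjusted exact permutation p = 0.135 over 15 pairs), which was 0.00507 without KO 4 and control 2. Srebf1 and Acly had an r of -0.632 (adjusted exact permutation p = 0.166), which was -0.648 without KO 4 and control 2, and -0.396 without KO 4 alone. In the authors' deposited values it was -0.945 (adjusted exact permutation p = 0.00262). Livers of the same surgery day are tied in those values, which hold almost no difference between most days. A permutation over 9 livers ignores this, so that p can be too small. Mlxipl and Fads1 had an r of 0.780 (adjusted exact permutation p = 0.118), which was 0.171 without KO 5 and control 4.

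**Figure D4:**
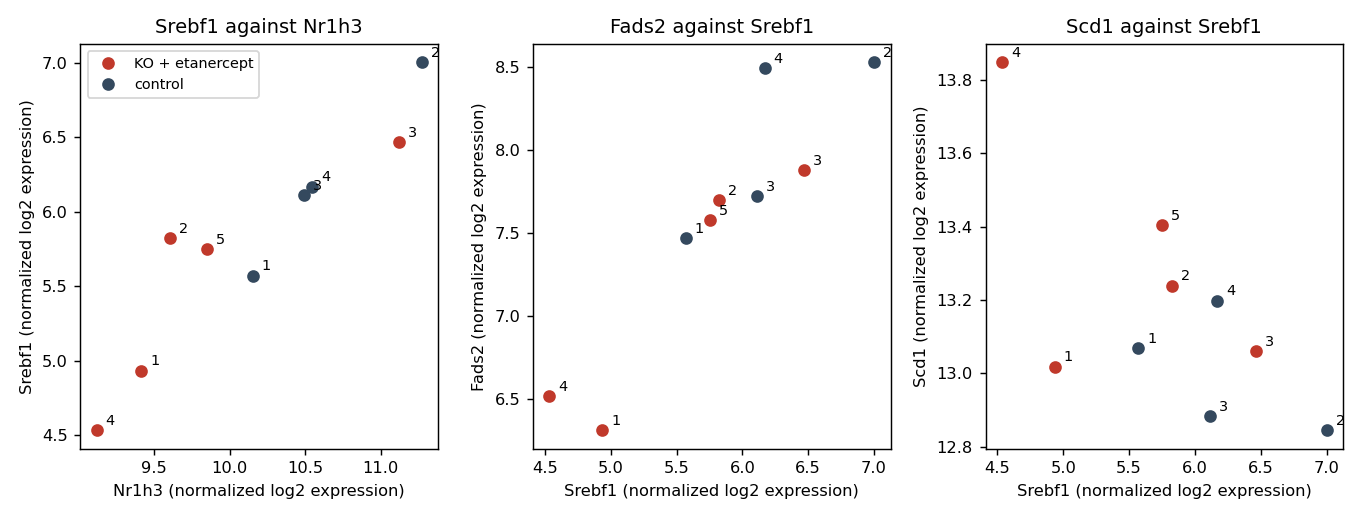
Normalized log2 expression of Srebf1 against Nr1h3, Fads2 against Srebf1 and Scd1 against Srebf1 in 5 KO livers (red) and 4 control livers (dark), each point 1 liver with its replicate number. The first pair has an r of 0.932 and the second of 0.918, and for Scd1 the liver KO 4 stands apart at 13.85.

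Many other features tracked Srebf1 as closely. Of the other 11558 features, 120 (1.04%) had a higher r with Srebf1 than Nr1h3 had, and 185 (1.60%) a higher r than Fads2 had. The 5 genes closest to Srebf1 over the 9 arrays were Cog4 (r = 0.994), Pdia5 (0.991), Tyms (0.989), Fer (0.987) and Etfdh (0.983), given as a description of likeness only. They share the arrays, including the dim KO 4, without which these r lay between 0.977 and 0.991. The same list for Fasn could not be made, since Fasn was not measured above background.

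LXRα with its partner RXR binds pairs of half-sites spaced by 4 bases, called DR4 elements, and the Srebf1 and Fasn genes are textbook LXR targets. The 250 bases before the annotated starts were searched in the RefSeq promoter table (GRCm38.p6), which holds 12 starts for 8 of the 10 genes. The half-site NGGTNA, repeated after 4 bases of any kind, was sought on either strand. It was found before 1 of 3 Srebf1 starts and before the Fasn start, and in 0.621% of all 32851 promoters. These windows are shown because they carry the DR4 match, which stands in capitals on the strand of the gene and reads as the motif on the other strand. The Srebf1 window is chr11:60210472-60210721 and the Fasn window chr11:120824548-120824797, both on the minus strand and both ending at the base before the start.
Srebf1: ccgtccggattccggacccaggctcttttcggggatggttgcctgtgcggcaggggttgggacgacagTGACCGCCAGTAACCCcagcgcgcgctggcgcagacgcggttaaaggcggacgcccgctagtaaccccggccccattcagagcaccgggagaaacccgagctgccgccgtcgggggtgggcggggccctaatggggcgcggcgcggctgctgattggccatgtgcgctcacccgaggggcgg
Fasn: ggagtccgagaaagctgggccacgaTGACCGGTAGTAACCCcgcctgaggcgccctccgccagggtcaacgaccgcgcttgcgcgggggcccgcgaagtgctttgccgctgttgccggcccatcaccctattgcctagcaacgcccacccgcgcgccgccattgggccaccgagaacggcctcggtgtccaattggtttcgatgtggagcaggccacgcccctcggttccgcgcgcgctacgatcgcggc
The match lies at positions -182 to -167 in the Srebf1 window and -225 to -210 in the Fasn window, counted back from the start. A match is a description of the letters and shows no binding in these livers. Before known LXR targets a match was likely from the start, and it does not bear on the correlation of Nr1h3 with Srebf1.

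In the same windows the E-box CACGTG, a motif that SREBP1, ChREBP and other factors can bind, was found before 1 Mlxipl start (positions -98 to -93), and in 6.02% of all promoters. The sterol response element letters TCACNCCAC were found before the other Mlxipl start (positions -136 to -128), and in 1.05% of all promoters. The carbohydrate response element, searched as CACGNG and CNCGNG with 5 bases of any kind between them, was found in 0 of the 12 windows and in 0.28% of all promoters. CCAAT, the NF-Y motif, was found in 4 of the 12 windows (of Fasn, Srebf1 and Mlxipl) and in 33.8% of all promoters. Each was searched on both strands, and 2 of the Fasn CCAAT matches overlap each other.

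The other genes of the pathway were examined as lists, and 0 of their 49 tested members passed in limma, in either direction, beside the 0.00865% of all features. At an unadjusted p under 0.05 the count was also 0, beside 4.09%. Of the 49 differences, 31 were negative and the median was -0.20. Of the other elongation and desaturation genes, 7 of 7 had negative differences with a median of -0.53. Elovl1, an elongase of very long chains, differed by -0.54 ± 0.29 (SE), and Hsd17b12 and Hacd3, which act in the elongation cycle, by -0.55 ± 0.30 and -0.33 ± 0.23. Of 10 triglyceride synthesis genes 7 were negative, with a median of -0.42. Mid1ip1, an activator of acetyl-CoA carboxylase, differed by -0.94 ± 0.52 (SE, not detected on KO 4), the acyltransferase gene Agpat2 by -0.75 ± 0.43, and Gpam, which starts glycerolipid synthesis, by -0.41 ± 0.25. With KO 4 left out of the fit these were -0.45 for Mid1ip1, -0.49 for Agpat2 and -0.27 for Gpam, and the medians of the elongation and triglyceride lists were -0.37 and -0.31.

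Genes that supply or use acetyl-CoA or NADPH were negative in 5 of 8 cases, with a median of -0.21. Tkt, transketolase, differed by 0.42 ± 0.22 (SE), Idh1, which makes cytosolic NADPH, by -0.61 ± 0.35, and Acacb, the mitochondrial acetyl-CoA carboxylase, by -0.43 ± 0.27. Without KO 4 the Idh1 difference was -0.33. Of 14 genes that process or assist SREBP1, 6 were negative and the median was 0.09. Ppargc1b, a coactivator of SREBP1 and LXR, differed by 0.90 ± 0.42 (SE). Insig2, which holds SREBPs in the endoplasmic reticulum, differed by 0.46 ± 0.38, and Scap, which escorts them out of it, by 0.33 ± 0.29 (0.14 without KO 4).

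Of 5 measured LXR targets outside lipogenesis 3 were negative, with a median of -0.08. The sterol transporter genes Abcg5 and Abcg8 differed by -0.57 ± 0.26 (SE) and -0.92 ± 0.49, and Pltp, phospholipid transfer protein, by 0.14 ± 0.24. Of 5 measured inputs and targets of ChREBP, 3 were negative and the median was -0.19. Slc2a2, the glucose transporter GLUT2, differed by -0.72 ± 0.41 (SE), the hormone gene Fgf21 by 0.59 ± 0.73, and Khk, ketohexokinase, by -0.19 ± 0.28. Without KO 4 the Khk difference was -0.12, the median of the ChREBP list was 0.06 and that of the LXR list -0.14. Every gene named from these lists had a limma adjusted p of 0.931 or more.

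**Figure D5:**
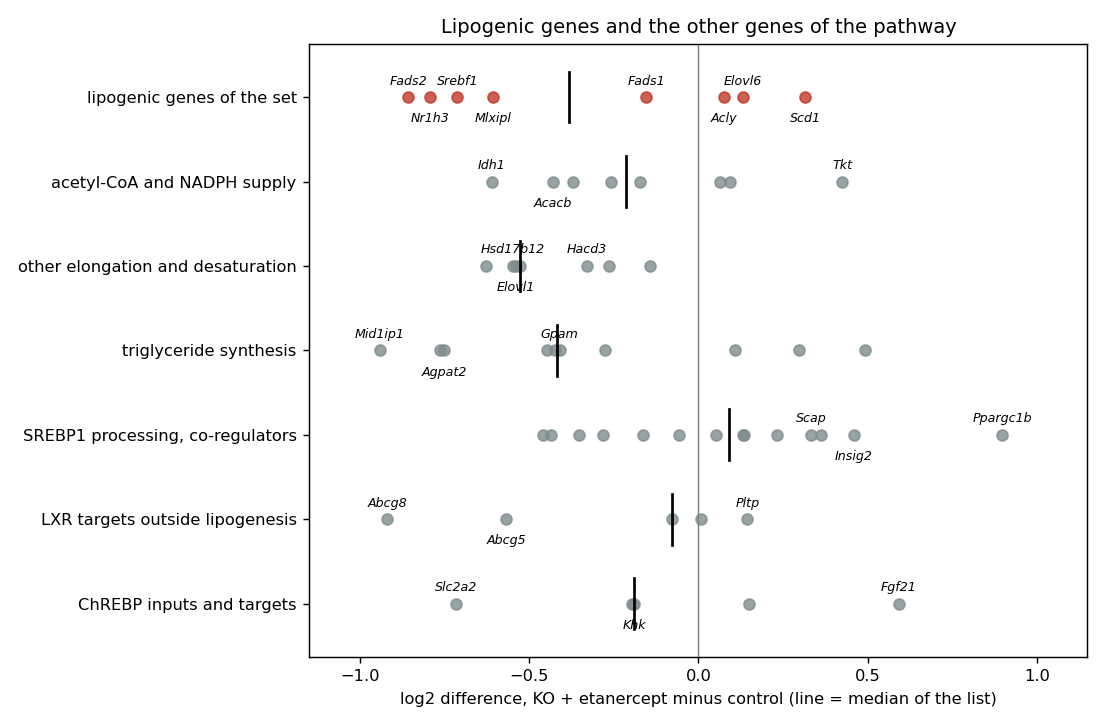
Log2 difference between KO and control livers (horizontal axis) for the 8 measured lipogenic genes (red) and the 49 tested genes of 6 pathway lists (grey), 1 point per gene, with the list median as a black line. The medians lie between -0.53 (other elongation and desaturation) and 0.09 (SREBP1 processing).

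Markers of the cell types a liver can hold were summed in each group. Hepatocyte markers had negative differences in 7 of 9 cases with a median of -0.15, and their summed normalized signal was 98.8 to 132.9 kilounits of intensity in the KO livers and 116.9 to 146.1 kilounits in the controls. Of 8 tested macrophage markers, 8 had positive differences with a median of 0.51, and their sum was 5.50 to 6.36 kilounits of intensity in the KO livers and 3.00 to 5.22 kilounits in the controls, without overlap. None of the 8 passed in limma (adjusted p of 0.931 or more). At an unadjusted limma p under 0.05, 4 of the 8 (Marco, Vsig4, Timd4 and Clec4f) were higher in the KO livers, beside 1.64% of all features. Of the 8, 1 (Marco) had every KO liver above every control, beside 0.329% of all features. Vsig4, the brightest of them, overlapped, at 11.12 in KO 2 and 11.14 in control 2. Stellate and smooth muscle markers differed by a median of 0.12 (4 of 6 positive, with Acta2 at 1.68 past the threshold, limma adjusted p = 0.0421), and their sum was 2.72 to 3.59 kilounits of intensity in the KO livers and 1.05 to 1.28 kilounits in the controls. Acta2, smooth muscle actin, made up 89.1% to 92.8% of that sum in the KO livers and 73.3% to 79.7% in the controls, and the sum without it was 0.226 to 0.377 kilounits in the KO livers and 0.250 to 0.281 kilounits in the controls. Tagln differed by 0.86 ± 0.22 (SE, limma adjusted p = 0.931) and, like Acta2, had every KO liver above every control. That held for 2 of the 6 markers, beside 0.329% of all features. Des differed by 0.19 ± 0.30 and Col1a2 by 0.06 ± 0.31. The stellate cell marker Lrat differed by -1.01 ± 0.36 (SE, limma adjusted p = 0.931, detected on 1 of 5 KO and 4 of 4 control arrays) and Col1a1 by -0.24 ± 0.31. Without KO 4 the median of the list was -0.02. The medians of the endothelial, bile duct and lymphocyte markers were 0.15 (5 of 7 positive), 0.48 (2 of 2) and 0.17 (1 of 1). Endothelial sums were 5.26 to 8.31 kilounits in the KO livers and 5.88 to 9.23 kilounits in the controls. Bile duct sums were 1.40 to 2.97 kilounits in the KO livers and 0.726 to 2.34 kilounits in the controls, and Cd3e, the 1 lymphocyte marker tested, read 0.0262 to 0.0436 kilounits in the KO livers and 0.0246 to 0.0378 kilounits in the controls. The part of these cell types in the lipogenic differences was not tested. Adipocytes are also rich in these enzymes. Their markers Adipoq, Plin1, Fabp4, Cidea and Retn were not detected on enough arrays to be tested, and Lep (0.53, detected on 3 of 5 KO and 2 of 4 control arrays) was the 1 such marker tested.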

How the data were processed

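RNA of 9 livers was hybridized as biotin-labelled cRNA to Illumina mouse bead arrays, per the labels. Each probe of the deposited raw table has an average intensity and a detection p-value, per the file headers. The authors' deposited normalized values, made with Partek per the submitters' processing notes, are log2 values from their range, with equal column means (7.29) and medians of 6.77 to 6.80; their normalization and centring are not stated. Each of the 27 columns of values entered the work.

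Limma neqc corrected the background (offset 16, negative controls inferred from the detection p-values), followed by quantile normalization and log2. The brightest of the 15687 passing probes of a gene stood for it, which gave 11559 features, 9319 with a symbol. The platform annotation gave 34885 probes 1 symbol, 18 several and 10378 none, and symbols were updated by Entrez ID through RefSeq (GRCm38.p6, 34807 matched). Groups were compared with limma (lmFit, eBayes, two-sided, no covariate) with Benjamini-Hochberg adjustment over all features. The fits ran in limma 3.58.1 under R 4.3.3, and the correlations and promoter searches in Python 3.11.15.

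The 10 genes and the lists were chosen with earlier results of these data known. Named were these genes, Ltbr, the 3 members of each pathway list with the smallest p, and the 5 genes closest to Srebf1. Of 61 pathway genes, 57 had a probe and 49 were tested. The plan held 21 regulator and enzyme pairs, and 15 remained because Fasn and Acaca were not detected.

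Per the labels, surgery days 1, 2 and 5 held 1 liver of each group, day 3 held control 3 alone, and day 4 held KO 2 and KO 5. Deviations from group means of same-day livers correlated across genes at 0.168 (day 1), -0.408 (day 2), 0.344 (day 4, both KO) and -0.565 (day 5), and genes are not independent replicates. In simulated data of independent genes, with 200 planted in each of 20 runs, the test over 11559 features recovered 0.2% of genes planted at a log2 difference of 0.5, 21.9% at 1, 72.3% at 2 and 92.5% at 3. So many planted genes ease the adjusted threshold, and the simulation held no dim array. Recovery in the measured data, where 1 feature passed, can therefore be lower. Other normalizations, filters, blocks and each array left out were run as alternatives.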

Additional observations from a re-analysis of the deposited data

Results flagged for a closer look

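Mid1ip1, an activator of acetyl-CoA carboxylase, read 4.50 in KO 4, far below the nearest KO liver at 6.72 and the highest at 7.26 on the log2 scale. Its difference was -0.94 with KO 4 and -0.45 with KO 4 left out of the fit. The gap to the nearest liver was 0.804 of the whole range of the KO livers. KO 4 is the dim array, and Mid1ip1 was not detected on it. Of 54 groups of livers examined over 27 genes this was the 1 that stood out, while chance alone marks about 1 in 20 groups.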

How the results depend on the processing

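Over 27 alternative settings, 196 of 214 values of single lipogenic genes kept their direction and their side of the threshold, 16 changed sign and 2 passed. Fads2, Srebf1, Mlxipl and Nr1h3 kept negative differences in every setting that measured them, and the strict filter (detection p under 0.01 on all arrays) left out Fads2 and Srebf1. Srebf1 and Nr1h3 came closest to 0 with the day block without KO 4 (-0.18 and -0.080), where Fads2 was -0.90 and Mlxipl -0.65. A difference in a day-block fit rests only on the days that held both groups. Causes were not tested. The number of features past the threshold, 1 in the fit on group alone, was 0 with surgery day as a replicate block, with slide as a term, on slide 1 or slide 2 alone, with median scaling, with the mean of all detected probes, with the authors' values and the day block, and with the day block without KO 4. It was 10 with array weights, 4 with KO 4 left out from background correction on, 1072 in the authors' values, and 0 to 4 with each array left out of the fit. The authors' values also gave 2 lipogenic genes, 3 of their probes and 6 pathway genes past the threshold, and 8 regulator and enzyme pairs against 2, while 0 pairs passed by r without KO 4. The counts from the authors' values can be too high, since same-day livers are not independent there. The median of the lipogenic genes (-0.38) was -0.15 with cyclic loess, -0.040 with the strict filter, which left 6 of them, and -0.51 to -0.17 with each array left out, the last without control 4. Elovl6 turned to -0.28 with the day block, -0.23 on slide 1 alone, -0.35 with median scaling, -0.16 in the authors' values, -0.24 there with the day block, and -0.21 with the day block without KO 4, and ranged from -0.13 to 0.28 with each array left out. Acly turned to -0.34 with median scaling, -0.23 with array weights and -0.040 with KO 4 left out from background correction on, and ranged from -0.040 to 0.20 with each array left out, while it was 0.36 in the authors' values and 0.25 with the day block. Scd1 turned to -0.060 with median scaling and -0.093 with the day block without KO 4. Fads1 turned to 0.072 with cyclic loess and ranged from -0.28 to 0.056 with each array left out. The day block changed the call of no lipogenic gene from the raw signals, and in the authors' values it ended those of Fads2 and Mlxipl. Low signal over background limits Srebf1 on KO 1 and KO 4, where its probe was not detected.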

Other observations

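Of the pathway genes outside the lipogenic set, 6 of 49 passed in limma in the authors' deposited values, beside 9.27% of all features, and they are named here after their values were seen. Insig1 (0.38 ± 0.09, SE) and Insig2 (0.97 ± 0.25), which hold SREBPs in the endoplasmic reticulum, were higher in the KO livers there, with adjusted p of 0.0335 and 0.0446. Lpin1, a phosphatidate phosphatase, was higher by 0.60 ± 0.07 (SE, adjusted p = 0.00394) in those values, but its difference from the raw signals was -0.28 ± 0.61 (SE). Pparg, a lipogenic nuclear receptor, was lower by a difference of -0.59 (adjusted p = 0.0234), as were the elongation genes Hsd17b12 at -0.78 (adjusted p = 0.026) and Hacd3 at -0.28 (adjusted p = 0.0199). None of these 6 passed with surgery day as a block in the same values, where 0 of 11559 features did. Their SE and p in the fit on group alone can be too small, since those values hold almost no difference between most surgery days.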
